A study of Mus musculus with 4 samples.

Results

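All 9 genes chosen as kinases and effectors of integrin and Fc receptor signalling were found among the 16566 genes listed. They are the Src family kinase genes Fgr and Lyn, Syk, Btk, Plcg2, Vav1, and the PI3K genes Pik3cd, Pik3cg and Pik3r5. They were chosen by symbol, not by a measured value, though earlier results of these data were known. RNA was sequenced from neutrophils of C57BL/6 mouse bone marrow, at a stated purity over 95%, and kept in culture for 1 h with 20% fetal bovine serum. The ruxolitinib group (2 libraries) received that drug, which blocks JAK1 and JAK2, for 1 h, and the vehicle group (2 libraries) received vehicle. The vehicle, 80% glucose with 20% PEG300, is listed for both groups. The treatment label gives ruxolitinib at 0.1 µM and the protocol gives 1 µM, so the dose is uncertain. Nothing in the labels says that the libraries came from separate animals or cultures, so p-values measure only how far these samples lie apart, which may be technical.

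In neutrophils, adhesion through integrins and the binding of immune complexes by Fc receptors are read out by a shared set of enzymes. Src family kinases phosphorylate tyrosine motifs (ITAMs) on adapter chains, Syk docks there, and adapters then assemble Btk, Plcg2, Vav1 and PI3K at the membrane. The outcome is calcium release, Rac activation, spreading, degranulation and the oxidative burst. None of the 9 proteins is a JAK kinase.

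The libraries held 14235511 to 15419579 estimated read counts. They did not group by treatment. The closest pair was ruxolitinib replicate 1 and vehicle replicate 1, with a spread beyond counting noise, as a coefficient of variation (BCV), of 3.73%, against 17.7% between the ruxolitinib libraries and 31.9% between the vehicle libraries. No value in the tables checks which library received which treatment, so the labels were taken as given, and each difference between ruxolitinib and vehicle rests on them. Vehicle replicate 2 stood apart from the other 3, with BCVs of 31.1% to 35.2% against each. The neutrophil markers led every library, with 12 of 12 detected. They summed to 88990 and 108500 CPM (counts scaled to library size) with ruxolitinib against 87830 and 96790 CPM with vehicle. Ngp and S100a9 were the most abundant of them, and single markers did not all follow the sum. Cxcr2 was at 542 and 463 CPM with ruxolitinib, against 526 and 1036 CPM with vehicle. Retnlg was at 4904 and 7957 CPM with ruxolitinib, against 4594 and 4444 CPM with vehicle. Genes of other marrow cells were present too, and 0 of the markers found in the deposited data was at 0 in all 4 libraries. The T and natural killer cell list and the erythroid list each held 11 markers, of which 10 were found. B lineage markers (14 of 14 detected in every library), which matter here because B cells use Syk, Btk, Plcg2 and Lyn, summed to 1361 and 2263 CPM with ruxolitinib against 1409 and 1674 CPM with vehicle. Monocyte and macrophage markers (12 of 12) summed to 537 and 520 CPM with ruxolitinib against 508 and 619 CPM with vehicle, and T and natural killer cell markers (9 of 10) to 44.4 and 58.1 CPM against 45.0 and 52.1 CPM. Eosinophil, basophil and mast cell markers (11 of 11) summed to 962 and 330 CPM with ruxolitinib against 855 and 1236 CPM with vehicle, and erythroid markers (10 of 10) to 9289 and 23360 CPM against 9381 and 9031 CPM. Megakaryocyte markers (8 of 10) summed to 19.0 and 18.1 CPM with ruxolitinib against 18.3 and 23.9 CPM with vehicle, and dendritic cell markers (8 of 8) to 95.8 and 74.8 CPM against 113 and 59.4 CPM. The part of these cells in the results was not tested, and in a bulk sample fewer cells of a type and less RNA per cell cannot be told apart.

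The promoters of 2 of the genes are shown because they belong to Pik3r5, which varied most between libraries, and to Vav1, the other gene that passed the threshold in a fit without vehicle replicate 1. Each is the 250 bases before the annotated start (RefSeq, GRCm38.p6), at chr11:68431875-68432124 on the plus strand for Pik3r5 and at chr17:57278850-57279099 on the plus strand for Vav1. Capitals mark GAGGAA, the core of the motif of PU.1, the transcription factor of myeloid cells, searched on both strands.

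Pik3r5: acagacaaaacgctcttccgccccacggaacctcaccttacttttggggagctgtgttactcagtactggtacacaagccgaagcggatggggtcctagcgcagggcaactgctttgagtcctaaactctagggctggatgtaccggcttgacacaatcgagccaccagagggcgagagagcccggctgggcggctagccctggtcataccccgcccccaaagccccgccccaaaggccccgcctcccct

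Vav1: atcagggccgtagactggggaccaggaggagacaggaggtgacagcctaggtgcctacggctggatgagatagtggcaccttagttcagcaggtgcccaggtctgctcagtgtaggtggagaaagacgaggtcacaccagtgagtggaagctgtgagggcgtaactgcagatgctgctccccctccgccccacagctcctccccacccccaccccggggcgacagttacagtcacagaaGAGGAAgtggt

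Of the 9 genes, 8 had a promoter in the table, with 12 annotated starts between them. The STAT motif TTCNNNGAA was found in 0 of these 12 windows, and in 7.02% of the 32851 promoters of all genes. GAGGAA lay in 3 of the 12 windows, those of Pik3cg, Syk and Vav1, against 23.3% of all promoters. In Vav1 it began 11 bases before the start. The longer GAGGAAGT, which contains GAGGAA, lay in the windows of Pik3cg and Vav1 and in 2.44% of all promoters. TATAAA lay in 0 of the 12 windows and in 12.4% of all promoters. A match is a run of letters, and the counts say nothing about whether a factor binds there.

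All 9 genes passed the filter on low counts, so all were tested. None differed between ruxolitinib and vehicle at an adjusted p below 0.05, where 0% of the 11611 genes tested passed in either direction (edgeR's quasi-likelihood test, Benjamini-Hochberg over all genes). Before adjustment 225 genes had p below 0.05, 65 of them higher (0.56%) and 160 lower (1.38%), and 1 of the 9 genes, Pik3r5, was among those lower. DESeq2 and limma-voom also called 0 genes. The fitted log2 fold change was below 0 for 8 of the 9 genes and for 50.6% of all genes tested. Its median was -0.33 over the 9 and -0.00 over all genes. All 9 genes were higher in vehicle replicate 2 than in vehicle replicate 1, by a median of 0.56 on the log2 CPM scale. Of all genes tested, 49.6% were higher in that pair, with a median of -0.01. The median difference of the 9 was 0.05 between ruxolitinib replicate 1 and vehicle replicate 1, with 6 genes above 0. There 52.4% of all genes tested were above 0, with a median of 0.01. Without vehicle replicate 2 the median log2 fold change of the 9 was -0.01.

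**Figure D1:**
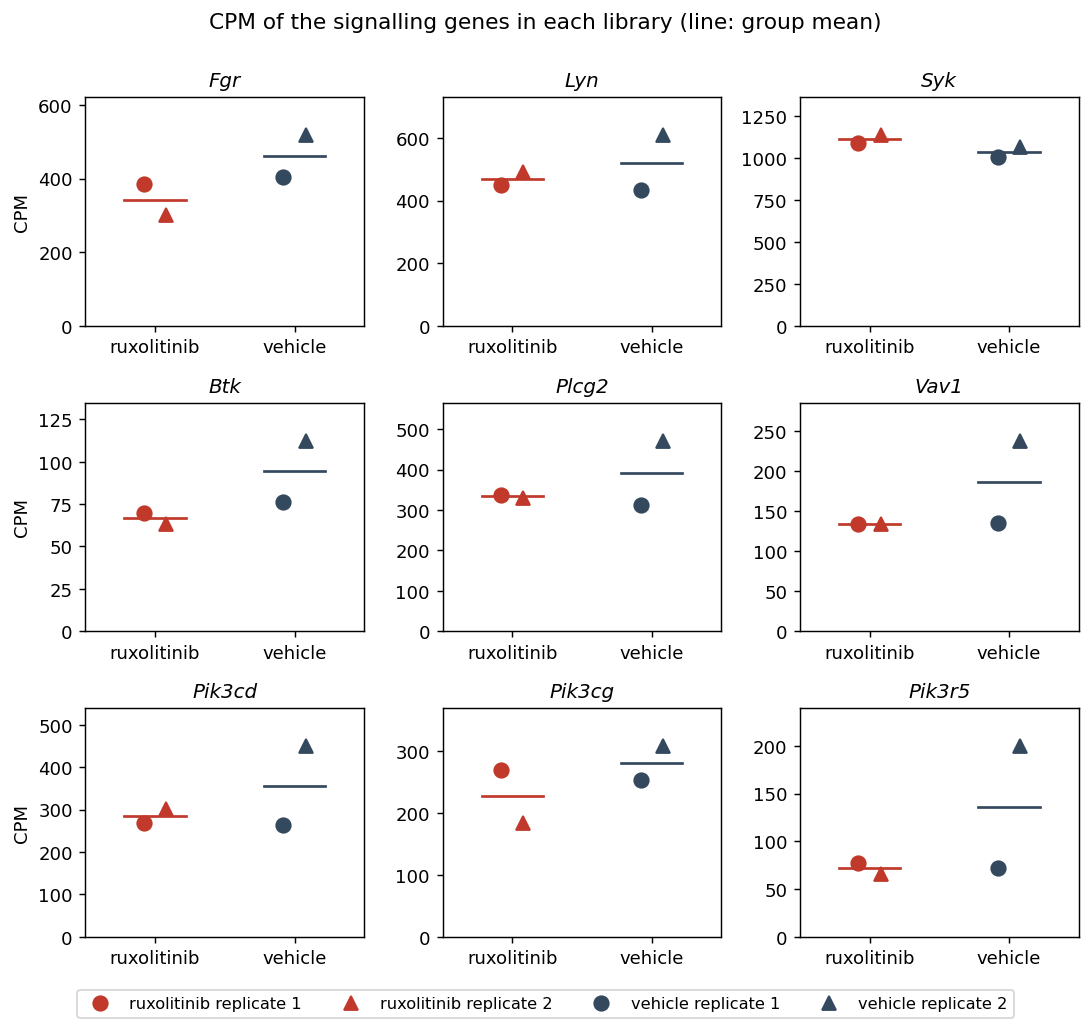
CPM (vertical axis, from 0, a scale per gene) of the 9 genes in the ruxolitinib libraries (red) and the vehicle libraries (dark blue), with circles for replicate 1, triangles for replicate 2 and a line at each group mean. For 8 of the 9 genes vehicle replicate 2 was the highest library; for Syk the highest was ruxolitinib replicate 2, at 1135 CPM.

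The Src family kinases act upstream of Syk. Fgr (chromosome 4, 132974095 to 133001893, GRCm38.p6, plus strand) encodes a kinase largely restricted to myeloid cells. It was at 384 and 301 CPM with ruxolitinib, against 404 and 518 CPM with vehicle. Both ruxolitinib libraries lay below both vehicle libraries, but ruxolitinib replicate 1 and vehicle replicate 1 were 0.07 apart on the log2 scale. The fitted log2 fold change was -0.43 ± 0.29 (SE, n = 2 per group; edgeR adjusted p = 0.975), with a 95% interval of -1.06 to 0.20.

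Lyn (chromosome 4, 3678068 to 3791612, plus strand) encodes the Src family kinase that in many blood cells also phosphorylates inhibitory receptors. Its level was 448 and 491 CPM with ruxolitinib, against 433 and 609 CPM with vehicle. The groups overlapped, and vehicle replicate 2 alone was high. Its log2 fold change was -0.15 ± 0.28 with all libraries and 0.11 without vehicle replicate 2. Lyn was the only one of the 9 with fractional estimated counts, and 248 bases of its exons are shared with Gm26857, a non-coding gene on the opposite strand. The sources used here do not say whether reads were counted by strand.

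The ratio of Fgr to Lyn in TPM (which divides by transcript length) was 0.86 and 0.60 with ruxolitinib, against 0.91 and 0.86 with vehicle. Ruxolitinib replicate 2 was thus the library with the least Fgr per Lyn. It was also the library with the lowest sum of eosinophil, basophil and mast cell markers and the highest sum of erythroid markers. Of the former list, Prg2 and Epx were lowest there, at 208 and 41.2 CPM, but Mcpt8 (13.4 CPM), Ms4a2 and Fcer1a were not. Its TPM to FPKM ratio was 1.46, where the others lay between 1.71 and 1.73. The part of these library traits in the ratio of Fgr to Lyn was not tested.

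Syk (chromosome 13, 52582610 to 52648792, plus strand), the kinase that docks on phosphorylated ITAMs, was the most abundant and the steadiest of the 9. It was at 1086 and 1135 CPM with ruxolitinib, against 1003 and 1063 CPM with vehicle. Both ruxolitinib libraries lay above both vehicle libraries, and the highest exceeded the lowest by 1.13-fold. This gave a log2 fold change of 0.10 ± 0.25, with an interval of -0.45 to 0.66. On the TPM scale the groups overlapped, at 395 and 329 TPM with ruxolitinib against 362 and 381 TPM with vehicle. By FPKM they kept the order seen in CPM, at 229 and 225 with ruxolitinib against 212 and 223 with vehicle. The order of the groups thus differed on the TPM scale, where ruxolitinib replicate 2 has the TPM to FPKM ratio of 1.46 given above.

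Groups that do not overlap were thus seen for 4 of the 9 genes on the CPM scale. Syk was the 1 with ruxolitinib above vehicle, a pattern found in 14.5% of all genes tested. Fgr, Btk and Vav1 were the 3 with ruxolitinib below vehicle, found in 12.8%. The log2 difference of ruxolitinib replicate 1 minus vehicle replicate 1 was -0.07 for Fgr, -0.14 for Btk and -0.01 for Vav1. For Vav1 that gap, 134.1 against 135.0 CPM, lies within the counting error of 2.34%.

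Btk, Plcg2 and Vav1 act on the membrane next to Syk. Btk (chromosome X, 134542334 to 134583628, minus strand), a Tec family kinase recruited by the lipid that PI3K makes, was at 69.6 and 63.5 CPM with ruxolitinib, against 76.5 and 112 CPM with vehicle. Vehicle replicate 2 was far above the rest, which spanned 63.5 to 76.5 CPM. The log2 fold change was -0.51 ± 0.29 (interval -1.15 to 0.14), and -0.21 without vehicle replicate 2. Of the 14 B lineage markers, 9 were highest in ruxolitinib replicate 2, where Btk was lowest, 4 in vehicle replicate 2, where Btk was highest, and 1 in vehicle replicate 1. Their part in the level of Btk was not tested.

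Plcg2 (chromosome 8, 117498275 to 117635142, plus strand) encodes the phospholipase that releases calcium-mobilising inositol phosphate. It was at 338 and 331 CPM with ruxolitinib, against 312 and 472 CPM with vehicle. Vehicle replicate 1 was the lowest and vehicle replicate 2 the highest of the 4, so the ruxolitinib libraries lay between them. Its log2 fold change was -0.23 ± 0.29, and 0.09 without vehicle replicate 2.

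Vav1 (chromosome 17, 57279100 to 57329236, plus strand), an exchange factor that switches on Rac, was at 134.1 and 134.1 CPM with ruxolitinib, against 135.0 and 238 CPM with vehicle. The ruxolitinib libraries and vehicle replicate 1 agree within sampling noise, since the smallest of these counts, 1824, carries a counting error of 2.34%. Vehicle replicate 2 alone was high, by 0.82 on the log2 scale over vehicle replicate 1. For Vav1 the log2 fold change was -0.48 ± 0.32 with all libraries and -0.02 without vehicle replicate 2.

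The class I PI3K genes of blood cells follow. Pik3cd (chromosome 4, 149649168 to 149702566, minus strand), the catalytic delta subunit that works under tyrosine kinases, was at 268 and 300 CPM with ruxolitinib, against 264 and 450 CPM with vehicle. Again vehicle replicate 2 alone was high and the groups overlapped. The log2 fold change was -0.33 ± 0.32, and 0.10 without vehicle replicate 2.

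Pik3cg (chromosome 12, 32173397 to 32208677, minus strand), the catalytic gamma subunit that answers chemoattractant receptors through G protein beta-gamma dimers, was at 269 and 184 CPM with ruxolitinib, against 253 and 307 CPM with vehicle. Ruxolitinib replicate 2 was the low library and vehicle replicate 2 the high one. The log2 fold change was -0.31 ± 0.30, which became -0.06 without ruxolitinib replicate 2 and -0.17 without vehicle replicate 2.

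Pik3r5 (chromosome 11, 68432125 to 68497849, plus strand), the regulatory partner that couples the gamma subunit to G proteins, was at 77.1 and 66.1 CPM with ruxolitinib, against 71.9 and 199.6 CPM with vehicle. Vehicle replicate 2 held 3.02 times the level of the lowest library, while the other 3 were close and the groups overlapped. The log2 fold change was -0.92 ± 0.41 (interval -1.83 to -0.01; edgeR adjusted p = 0.975), and -0.01 without vehicle replicate 2. Between vehicle replicate 2 and vehicle replicate 1, Pik3r5 differed by 1.47 on the log2 scale, above 98.1% of all genes tested in that pair. Vav1 stood at 90.4% and Pik3cd at 89.2% in the same pair, and Syk at 55.6%.

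**Figure D2:**
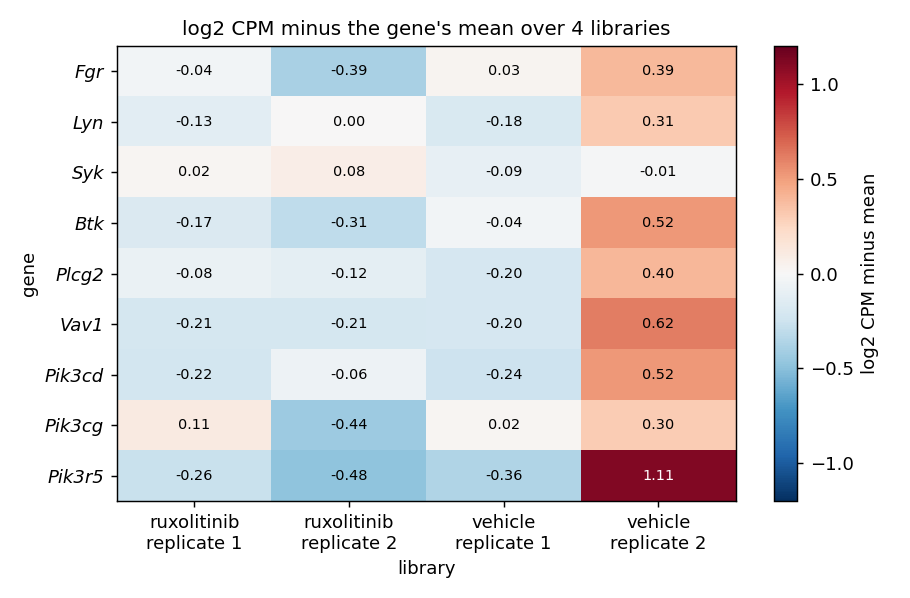
Colour and number give log2 CPM minus the gene's mean over the 4 libraries, with genes down the side and libraries across. Values in vehicle replicate 2 ran from -0.01 for Syk to 1.11 for Pik3r5, and ruxolitinib replicate 2 was lowest for Fgr, Btk, Pik3cg and Pik3r5.

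Pik3r5 has a neighbour with a related role. Pik3r6, which encodes the other regulatory partner of the gamma subunit, lies beside it at 68503019 to 68552698 on chromosome 11. It was at 21.7 and 19.8 CPM with ruxolitinib, against 25.02 and 59.9 CPM with vehicle. Like Pik3r5 it was high in vehicle replicate 2 (log2 fold change -1.03 ± 0.39, unadjusted p = 0.0225, edgeR adjusted p = 0.975). Without vehicle replicate 1 it passed as lower (-1.52, edgeR adjusted p = 3.54e-05). The TPM ratio of Pik3r5 to Pik3cg was 0.40 and 0.51 with ruxolitinib, against 0.41 and 0.93 with vehicle, and that of Pik3r6 to Pik3cg was 0.17 and 0.22 against 0.21 and 0.42. The ratio of Pik3r5 to Pik3r6 stayed between 1.97 and 2.42 in the 4 libraries. The ratio of Pik3cg to Pik3cd was 0.79 and 0.45 with ruxolitinib, against 0.73 and 0.54 with vehicle, so it was below 1 in every library and lowest in the replicate 2 library of each group.

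Leaving out vehicle replicate 1, which sets both ruxolitinib libraries against vehicle replicate 2 alone and assumes that this library varies like the others, 2 of the 9 genes passed as lower. Pik3r5 had a log2 fold change of -1.47 (edgeR adjusted p = 8.77e-05) and Vav1 one of -0.82 (adjusted p = 0.0427). In that fit 6.62% of all genes tested passed as lower and 7.13% as higher. Btk just missed the threshold at -0.75 (adjusted p = 0.0521), and Syk was at 0.07. Without vehicle replicate 2, 0 of the 9 passed, against 0.00846% of all genes in each direction, and the log2 fold changes ran from -0.25 for Fgr to 0.14 for Syk. Without ruxolitinib replicate 1 (0.0333% of all genes higher, 0.05% lower) and without ruxolitinib replicate 2 (0.00832% and 0.0416%), 0 of the 9 passed too.

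**Figure D3:**
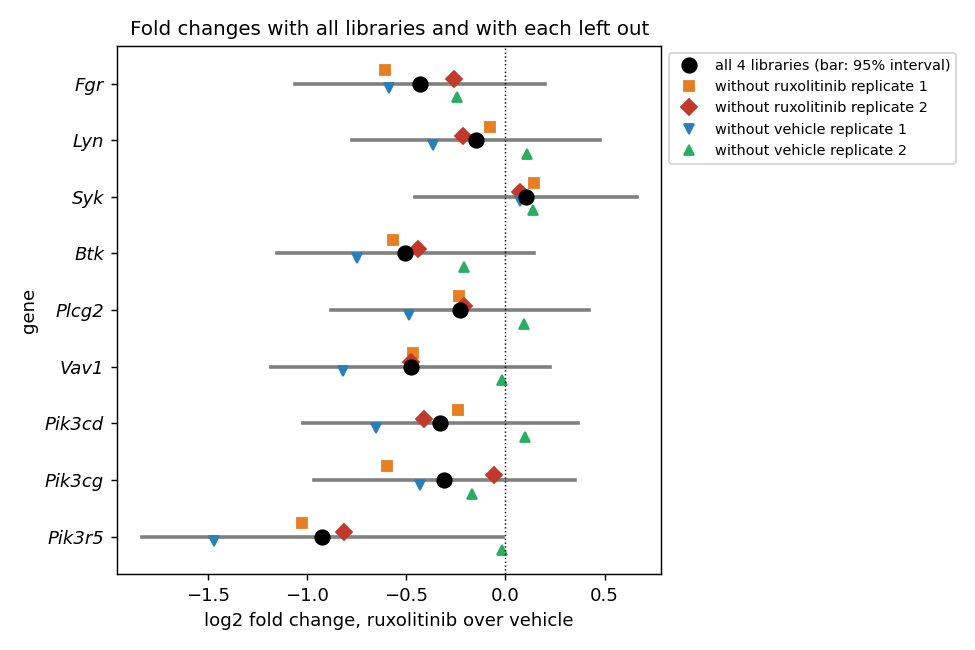
Points give the log2 fold change of ruxolitinib over vehicle (horizontal axis) for each gene, with all libraries (black, with its 95% interval) and after removal of each single library. The points without vehicle replicate 2 (green) lie between -0.25 and 0.14, and those without vehicle replicate 1 (blue) reach -1.47 for Pik3r5.

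Levels between genes can be compared only per length. By mean TPM over the 4 libraries, Syk led at 367 ± 28.8 TPM, followed by Lyn (260 ± 47.0 TPM), Fgr (212 ± 61.5 TPM), Plcg2 (144 ± 36.7 TPM) and Pik3cd (115 ± 33.1 TPM). Pik3cg (70.9 ± 19.8 TPM), Vav1 (66.2 ± 24.8 TPM), Btk (55.9 ± 18.6 TPM) and Pik3r5 (41.4 ± 27.5 TPM) came last (SD, n = 4). Each gene exceeded the next in 4 of 4 libraries, except Pik3cg over Vav1 (2 of 4) and Btk over Pik3r5 (3 of 4), so these 2 steps were not beyond the spread. The order was the same by FPKM and by CPM per kilobase.

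**Figure D4:**
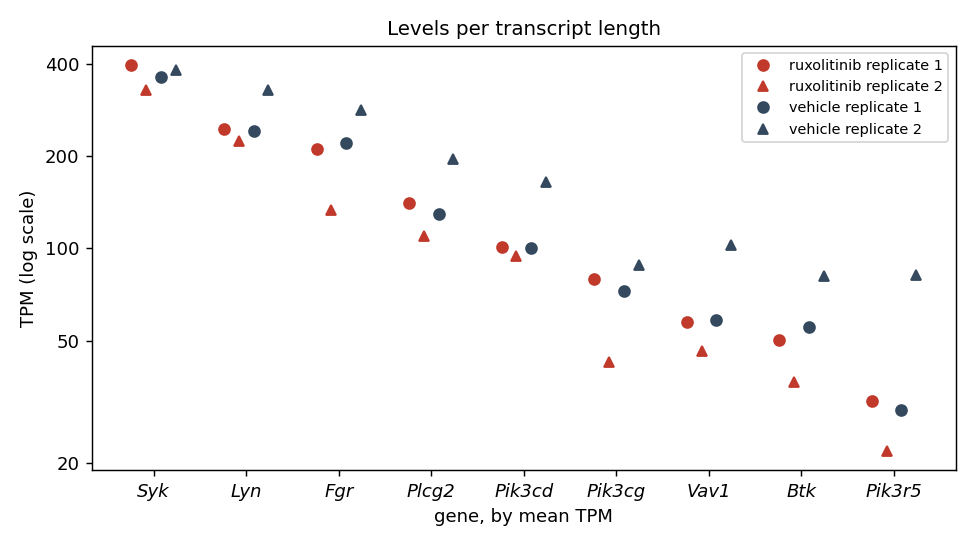
TPM (vertical axis, log scale) of each gene in the ruxolitinib (red) and vehicle (dark blue) libraries, with genes in the order of mean TPM. Levels fell in steps from Syk to Pik3r5, whose 4 values spanned 21.9 to 82.2 TPM.

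Of the 9 genes, 8 were longer than the median effective length of 2712 bases among genes tested, Btk (2408 bases) being the exception. Long genes read differently in the libraries. Per doubling of length, log2 CPM moved by -0.11 in ruxolitinib replicate 2 and by 0.08 in vehicle replicate 2, against 0.03 in ruxolitinib replicate 1 and 0.00 in vehicle replicate 1. With that trend removed, the median log2 fold change of the 9 genes was -0.25, Pik3r5 was at -0.86 and Syk at 0.17, and 0 genes passed. Before that removal the median was -0.33, Pik3r5 was at -0.92 and Syk at 0.10. The part of gene length in the fold changes was not tested.

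Among the 9 genes, the most alike profiles over the 4 libraries were those of Lyn and Plcg2, with a root mean square difference of centred log2 CPM of 0.08. Pik3cd and Vav1 (0.09) and Fgr and Pik3cg (0.09) came next, and Pik3r5 and Syk were least alike (0.66). Outside the list, the genes nearest to the mean profile of the 9 were Tbc1d10b, Ppp2r5e, Ccdc88a, Akap8l and Ddx58, with differences of 0.01 to 0.02. Tbc1d10b was at 105 and 96.7 CPM with ruxolitinib, against 102 and 157 CPM with vehicle. With 4 libraries, such a likeness describes little more than the height of vehicle replicate 2.

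A further 150 genes of the same pathways were put in 9 lists, of which 148 were tested. None passed in either direction, 2 had an unadjusted p below 0.05 (Pik3r6 and Plcb3), and 88 (59.5%, against 50.6% of all genes tested) had a log2 fold change below 0, with a median of -0.08. The ruxolitinib libraries lay wholly above the vehicle libraries for 15 of the 148 and wholly below for 12, which is 10.1% and 8.11%, against 14.5% and 12.8% of all genes tested. Without vehicle replicate 1, 5 passed as higher (3.38%, against 7.13% of all genes) and 12 as lower (8.11%, against 6.62%). The calls given below for single genes in that fit stand against these shares.

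Receptors and ITAM adapters upstream of Syk (15 tested, 0 called) had a median log2 fold change of 0.01, with 8 above 0. The integrin chain genes Itgam (log2 fold change -0.15) and Itgb2 (-0.10) were the most abundant. Fcgr2b, the inhibitory Fc receptor gene, was at 48.5 and 38.8 CPM with ruxolitinib, against 54.8 and 64.9 CPM with vehicle. Fcgr1, the high-affinity Fc receptor gene, stayed below 2 CPM in every library.

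Other Src family kinases and their regulators (15 tested, 0 called) had a median of 0.02. The phosphatase gene Ptprc, which removes the inhibitory phosphate of Src family kinases, was at 1490 and 1485 CPM with ruxolitinib, against 1433 and 1812 CPM with vehicle. Ptpn6, the phosphatase of inhibitory receptors, was at 721 and 507 CPM against 720 and 677 CPM. Ptpn22, a phosphatase that restrains Src family kinases, was at 41.2 and 46.9 CPM against 40.7 and 79.8 CPM, and passed without vehicle replicate 1 (log2 fold change -0.85, edgeR adjusted p = 0.0222). Yes1 stayed below 4 CPM.

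The other Tec kinases (4 tested, 0 called) differed among themselves. Bmx, which like Btk was high in vehicle replicate 2, was at 78.9 and 85.2 CPM with ruxolitinib, against 77.7 and 162 CPM with vehicle. Tec was lowest there, at 78.3 and 96.8 CPM with ruxolitinib against 77.9 and 52.1 CPM with vehicle. Bmx passed without vehicle replicate 1 (log2 fold change -0.97, edgeR adjusted p = 0.0104).

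Adapter proteins of the Syk pathway (19 tested, 0 called) had a median of -0.16. The integrin adapter gene Fyb was at 355 and 318 CPM with ruxolitinib, against 339 and 511 CPM with vehicle. Pik3ap1, an adapter that brings PI3K to receptors, went the other way, at 596 and 470 CPM with ruxolitinib against 597 and 225 CPM with vehicle, and passed as higher without vehicle replicate 1 (log2 fold change 1.25, edgeR adjusted p = 0.0052). Blnk, the adapter best known from B cells, was at 119 and 164 CPM against 121.5 and 73.0 CPM, and Sh3bp2 at 61.1 and 43.7 CPM against 59.3 and 98.6 CPM. Both passed without vehicle replicate 1, Blnk as higher (0.96, edgeR adjusted p = 0.0231) and Sh3bp2 as lower (-0.90, adjusted p = 0.0161).

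Other PI3K subunits and lipid phosphatases (17 tested, 0 called) had a median of -0.18. Inpp5d, the phosphatase SHIP that consumes the PI3K product, was at 416 and 419 CPM with ruxolitinib, against 412 and 416 CPM with vehicle, with all 4 libraries close. Pik3r3, a regulatory subunit gene, stayed below 4 CPM and passed as higher without vehicle replicate 1 (log2 fold change 2.60, edgeR adjusted p = 0.0028). PI3K effectors (20 tested, 0 called) had a median of -0.07, with Akt1 at -0.15, Akt2 at 0.18, Gsk3b at -0.34 and Phlpp1, a phosphatase of AKT, at 0.47.

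Phospholipase C and protein kinase C genes (22 tested, 0 called) had a median of -0.11. Prkcd (log2 fold change -0.11) and Prkcb (0.02), protein kinase C genes, were the most abundant. Rasgrp1, a Ras exchange factor gene activated by diacylglycerol, was at 20.9 and 31.3 CPM with ruxolitinib, against 22.6 and 78.1 CPM with vehicle. Plcb3, a phospholipase gene under G proteins, was at 10.96 and 7.57 CPM with ruxolitinib, against 12.9 and 24.3 CPM with vehicle (unadjusted p = 0.0229, edgeR adjusted p = 0.975). Without vehicle replicate 1 both passed as lower, Rasgrp1 at -1.57 (edgeR adjusted p = 2.02e-05) and Plcb3 at -1.38 (adjusted p = 0.00141).

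Rac and Rap exchange factors and GTPases (21 tested, 0 called) had a median of -0.05. The most abundant were Arhgdib, which encodes an inhibitor of small GTPases, with a log2 fold change of 0.08, and Rac2, the Rac of blood cells, at 0.03. Apbb1ip, which links Rap to integrins, was at 194 and 171 CPM with ruxolitinib, against 186 and 361 CPM with vehicle, and Dock8, which encodes a Cdc42 exchange factor, at 453 and 377 CPM against 406 and 743 CPM. Without vehicle replicate 1, Apbb1ip passed as lower (-0.98, edgeR adjusted p = 0.0157) and Dock8 did not (adjusted p = 0.0525). Inhibitory receptors and DOK adapters (15 tested, 0 called) had a median of -0.10. Pirb was at 572 and 436 CPM with ruxolitinib, against 560 and 914 CPM with vehicle, Ceacam1 at 532 and 403 CPM against 523 and 740 CPM, and Lilrb4a at 2241 and 1942 CPM against 2287 and 1430 CPM. Without vehicle replicate 1, Pirb passed as lower (-0.85, edgeR adjusted p = 0.0495). These 3 genes have close paralogs that can share reads.

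**Figure D5:**
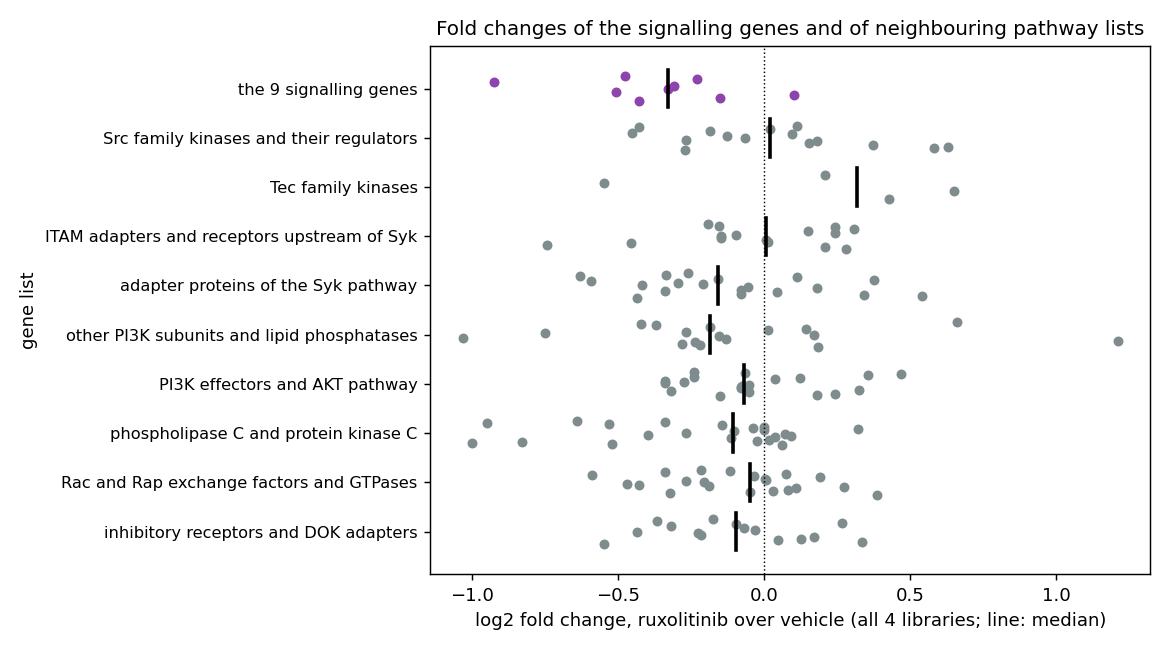
Each point is the log2 fold change of ruxolitinib over vehicle of one gene (horizontal axis), with the 9 signalling genes in purple, the pathway lists in grey and a black line at each median. The median of the 9 was -0.33, and those of the pathway lists ran from -0.18 to 0.32, the highest being that of the 4 Tec family kinases.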

How the data were processed

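RNA was sequenced from 4 libraries of neutrophils, grouped by the treatment label. The build GRCm38.p6 and the tools Bowtie2, RSEM and DESeq2 are named in the submitters' processing notes. Their settings are not given in the sources used here. Per the file headers, the authors deposited a read count per gene, an estimated count by its fractional values (91.0% to 91.1% whole within 1e-06), and TPM and FPKM values. TPM, FPKM and a length derived from count and FPKM were used for levels and length, never for a test. Estimated counts were rounded and tested in R 4.3.3 with edgeR 4.0.16 (TMM, filterByExpr at a count of 10 and a total of 15, quasi-likelihood test, group as the only term), which left 11611 genes. CPM uses the TMM-scaled library sizes, and log2 CPM a prior count of 2. The standard error is the log2 fold change divided by the square root of F. Adjusted p-values are Benjamini-Hochberg over all genes tested, with a threshold of 0.05. The counting error was 0.81% to 3.40% for the lowest count of each of the 9 genes. The procedure was tested on simulated data, drawn from the same model for all libraries, so none stood apart there as vehicle replicate 2 does here. Its rate of finding real changes is not reported here.

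The 9 genes and the lists were chosen with earlier results of these data known. The genes named from each list are the 2 most abundant and the 2 with the smallest unadjusted p. Some genes that this rule names are not reported here. Pik3r6 is also named for its ratios to the 9 genes. Lists of marker genes are given by their sums, with some single members named. Alternatives were RLE scaling, DESeq2 1.42.0, limma-voom (limma 3.58.1), other filters, the replicate number as a block, removal of the length trend, and each library left out.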

Additional observations from a re-analysis of the deposited data

How the results depend on the processing

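The 9 genes kept their direction and stayed short of the threshold under RLE scaling, DESeq2, limma-voom, both other filters, the replicate block and removal of the length trend. Without vehicle replicate 2 the log2 fold changes of Lyn (0.11), Pik3cd (0.10) and Plcg2 (0.093) changed sign, with -0.363, -0.651 and -0.486 at the other end, without vehicle replicate 1. The cause was not tested. Leaving out each library in turn, between 0 and 2 of the 9 genes passed as lower and 0 as higher. Over all genes the calls ranged from 1 to 853 higher and from 1 to 792 lower. Titles number the libraries of each group alike, but nothing says that a number marks a shared animal or day, and the difference between replicates of one group did not follow that of the other (r = 0.04 across genes). With the replicate block, which leaves 1 residual degree of freedom, 9 genes passed as higher and 7 as lower, with 0 of the 9 among them. The list medians moved with the library left out: from -0.04 to 0.10 for Src family kinases, 0.11 to 0.79 for Tec kinases, -0.039 to 0.15 for ITAM adapters and receptors, -0.37 to -0.0015 for Syk pathway adapters, -0.29 to 0.0096 for PI3K subunits, -0.14 to 0.037 for PI3K effectors, -0.24 to 0.06 for phospholipase C, -0.13 to 0.060 for Rac and Rap, and -0.31 to 0.017 for inhibitory receptors. A filter of 50 counts on average put the Src family list at -0.078, and removal of the length trend put the ITAM list at -0.087. The median standard error over all genes was 0.33 on the log2 scale, and the 95% interval of 8 of the 9 genes included 0.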
